A study of Mus musculus with 8 samples.

Results

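The 9 genes of megakaryocytes and platelets described here, Pf4, Ppbp, Tubb1, Alox12, Treml1, Itga2b, Itgb3, Gp9 and Gp1bb, were followed across EGFP-sorted gut cells of mouse embryos. They were chosen with earlier results of these data known, and were taken with every array probe that the platform annotation gives to these symbols. This made 15 of 45281 probes and 9 of 19057 named genes. The Bapx1 null group held 4 arrays of cells homozygous for the tm4.Tlu allele, in which EGFP sits directly behind the start codon of Bapx1 and takes the place of a short stretch of coding sequence. The wildtype group held 4 arrays of cells with a single tm2.Tlu allele, in which an IRES-EGFP cassette lies in the 3' untranslated region and the coding sequence is intact. All embryos were E12.5, of strain C57BL/6J;129, and in both groups EGFP was read from the Bapx1 promoter and the gut was dissected before sorting. The number of EGFP alleles therefore differed along with the genotype. The methods call the replicates biological, and whether embryos were pooled is not given in the sources used here. In these bulk samples, fewer cells of a type and less RNA per cell cannot be told apart.

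Megakaryocytes are the large polyploid cells that shed platelets, and in the mouse embryo they arise in the yolk sac and then the fetal liver. They load alpha granules with chemokines such as Pf4, build a marginal microtubule ring from a tubulin of their own, and place a pair of receptor systems on the surface, the Gp1b-IX-V complex for von Willebrand factor and the integrin alphaIIb-beta3 for fibrinogen. GATA1, FLI1 and other ETS factors, RUNX1 and NF-E2 are known regulators of these genes. Bapx1, also named Nkx3-2, encodes a homeobox factor of gut and spleen mesenchyme.

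Between 31.0% and 38.5% of all probes were detected on the Bapx1 null arrays and between 38.2% and 40.0% on the wildtype arrays, where detection means a score above 0.99 against the negative controls. Bapx1 null replicate 2 had the lowest share. Both Bapx1 probes were detected on all 4 Bapx1 null arrays, at intensities of 102 to 144, and on none of the wildtype arrays, at 45.5 to 55.4. Most of the gene remains in the tm4.Tlu allele, and the sources used here do not place either probe in the transcript, so these probes are no check of the labels. Why neither probe was detected on the wildtype arrays, where the coding sequence is intact, was not tested. Group names and every direction below rest on the labels. Gut mesenchyme was present under both labels, with 9 to 11 of 13 of its markers detected per Bapx1 null array and 10 to 11 per wildtype array.

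The promoters of the 5 members with the brightest probes are shown because these are the genes the comparison turns on. RefSeq gave a promoter for 8 of the 9 members, all but Itgb3 (assembly GRCm38.p6). Each line gives the 130 bases before the transcription start, 5' to 3' on the gene's own strand, with matches to the ETS letters in capitals.
Pf4: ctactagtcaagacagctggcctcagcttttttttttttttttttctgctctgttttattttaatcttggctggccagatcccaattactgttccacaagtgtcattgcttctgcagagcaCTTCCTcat
Ppbp: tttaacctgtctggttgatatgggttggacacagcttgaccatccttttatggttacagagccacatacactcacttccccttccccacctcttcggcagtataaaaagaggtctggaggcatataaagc
Tubb1: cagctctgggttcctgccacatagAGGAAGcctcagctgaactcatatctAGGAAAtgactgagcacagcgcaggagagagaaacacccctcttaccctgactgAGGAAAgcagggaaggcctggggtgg
Alox12: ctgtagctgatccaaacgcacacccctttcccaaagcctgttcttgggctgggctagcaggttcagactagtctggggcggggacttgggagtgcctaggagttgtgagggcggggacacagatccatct
Treml1: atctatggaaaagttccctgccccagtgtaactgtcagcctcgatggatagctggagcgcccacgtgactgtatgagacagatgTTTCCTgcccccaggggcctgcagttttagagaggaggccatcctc
The stretches lie at chr5:90772305-90772434 (plus strand) for Pf4, chr5:90768388-90768517 (plus) for Ppbp, chr2:174450465-174450594 (plus) for Tubb1, chr11:70255371-70255500 (minus) for Alox12 and chr17:48359786-48359915 (plus) for Treml1. Pf4 and Ppbp are neighbours, with 3917 bases between their starts.

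The letters searched, on both strands of the whole 300-base window, were for ETS factors AGGAAG or CGGAAG (each also with a final A: AGGAAA or CGGAAA), for GATA factors AGATAA or TGATAA (each also with a final G: AGATAG or TGATAG), for RUNX factors TGTGGT or TGCGGT, and for NF-E2 TGAGTCA. ETS letters were present in 6 of the 8 member promoters (75%) and in 64.7% of the 32851 promoters in the table. Tubb1 held 3 matches, with first bases 106, 80 and 26 bases before the start, Pf4 held 1 match 9 bases before the start and another after it, and Treml1 held 1, at 46 bases. Itga2b also held 3 before its start, Gp9 held 2 that overlap, and Gp1bb held 1 before and 1 after its start. Ppbp and Alox12 held none. GATA letters were present in 2 of 8 promoters (25%), those of Pf4 and Gp1bb, against 29.8% of all promoters. RUNX letters were present in 1 of 8, that of Gp9, against 22.4% of all, and NF-E2 letters in 0 of 8, against 5.2% of all. These are matches of letters, not measured binding sites.

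Pf4, Ppbp, Tubb1, Alox12 and Treml1 fell in Bapx1 null cells, Ppbp at least 5.43-fold and the other 4 with differences of -3.26 to -2.26 on the log2 scale, and every Bapx1 null array lay below every wildtype array for each of them. Gp9 was separated in the same way at a lower signal. Itga2b and Gp1bb had lower means in Bapx1 null cells but overlapping normalized values, and Itgb3 was not detected on any of the 8 arrays. After the filter for detection on at least 4 of 8 arrays, 5 of the 9 members were tested and all 5 were lower at an adjusted p under 0.05 (limma, Benjamini-Hochberg over 9784 genes), where 0.256% of all tested genes were. Of these 5 only Pf4 was detected on all arrays. The other 4 passed the filter through the wildtype arrays, where they are high, so the count over tested members carries no support by itself. Without the filter, 0 of 9 members passed (limma, 19057 genes, 0.0735% of them called lower), with adjusted p between 0.054 and 0.324. At an unadjusted p under 0.05 without the filter, 7 members were lower by limma. In that fit 3559 of the 19057 genes reached this p in either direction. By the methods' test, which takes each gene's spread from that gene alone, 6 members were lower. The share of all genes at this p by that test without the filter was not counted.

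**Figure D1:**
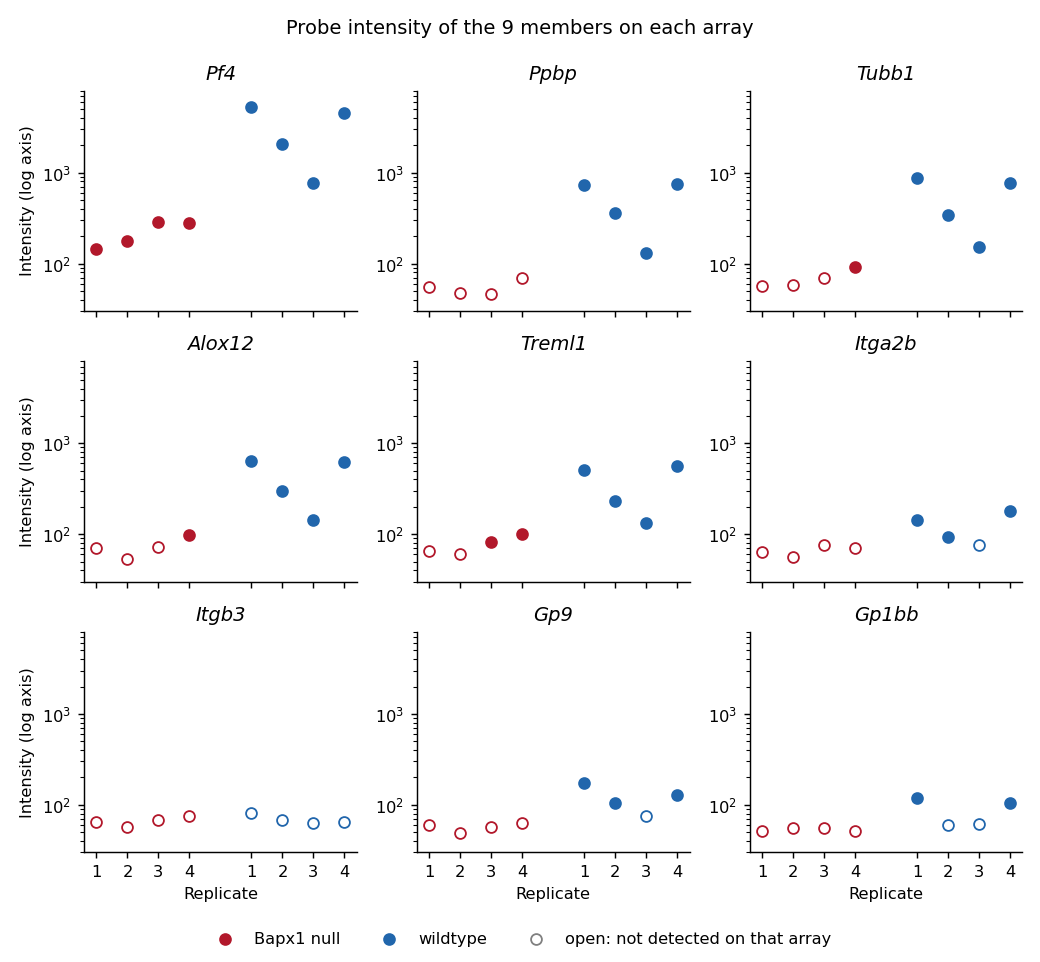
Intensity of 1 probe per member (log axis) on each array, Bapx1 null replicates 1 to 4 on the left and wildtype replicates 1 to 4 on the right, with open circles where the probe was not detected. In the panels of Pf4, Ppbp, Tubb1, Alox12 and Treml1 all wildtype points lie above all Bapx1 null points, and wildtype replicate 3 is the lowest wildtype point.

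The platelet chemokines are given first. Pf4, platelet factor 4, is a heparin-binding chemokine of the alpha granule. Its intensity was 145, 175, 289 and 279 on Bapx1 null arrays 1 to 4, against 5347, 2062, 767 and 4596 on wildtype arrays 1 to 4. It was the only member detected on all 8 arrays, and its lowest wildtype array was still 2.65-fold above its highest Bapx1 null array. On the normalized log2 scale Pf4 averaged 7.85 ± 0.65 in Bapx1 null cells and 11.10 ± 1.17 in wildtype cells (SD, n = 4 each), a difference of -3.26 ± 0.53 (SE), or 9.57-fold lower, with an adjusted p of 0.0312 (limma).

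Ppbp encodes pro-platelet basic protein, the precursor of further alpha granule chemokines. Its brighter probe gave 55.4, 47.7, 46.0 and 68.7 on Bapx1 null arrays 1 to 4, against 736, 362, 130 and 741 on the wildtype arrays. No Bapx1 null array detected it and all 4 wildtype arrays did. The measured means were 4.61 ± 0.22 and 8.23 ± 1.19 on the log2 scale in Bapx1 null and wildtype cells (SD, n = 4 each), and the adjusted p was 0.0198 (limma). Because the Bapx1 null signal was not above background, the change is given as a bound of at least 5.43-fold lower, in which each Bapx1 null array counts at the lowest value that any detected probe had on it. The second Ppbp probe showed the same arrangement, at 46.6 to 57.6 in Bapx1 null cells against 103 to 518 in wildtype cells, with a bound of at least 3.54-fold and an adjusted p of 0.029 (limma, every kept probe as its own row). Of 4 other CXC chemokine genes with a probe, Cxcl1, Cxcl2, Cxcl3 and Cxcl15, none was detected on any array.

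Tubb1, the beta1-tubulin of the platelet marginal band, read 56.8, 58.3, 69.2 and 91.7 in Bapx1 null cells, against 870, 345, 151 and 769 in wildtype cells. Only Bapx1 null replicate 4 detected it, and all wildtype arrays did. It was 8.76-fold lower in Bapx1 null cells, a difference of -3.13 ± 0.49 (SE) with an adjusted p of 0.0276 (limma). Its other 2 probes were not detected on any array and differed by -0.13 each.

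Alox12 encodes platelet 12-lipoxygenase, which turns arachidonic acid into 12-HETE. It read 71.3, 52.8, 71.4 and 98.8 in Bapx1 null cells, where replicate 4 alone detected it, against 631, 295, 142 and 626 in wildtype cells. The difference was -2.75 ± 0.45 (SE; adjusted p = 0.0308, limma), 6.72-fold lower, and its other 2 probes were again not detected anywhere. Treml1 encodes TLT-1, a receptor stored in alpha granules and brought to the surface on activation. It read 64.8, 61, 82 and 99.8 in Bapx1 null cells, against 507, 234, 134 and 567 in wildtype cells, with detection on Bapx1 null replicates 3 and 4 and on all wildtype arrays. Its difference of -2.26 ± 0.43 (SE) was the smallest of the 5 and its adjusted p of 0.0496 lay at the threshold (limma).

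The receptor subunits were dimmer. Gp9, the small subunit of the Gp1b-IX-V complex, read 60.2, 49.3, 56.5 and 62.5 in Bapx1 null cells, detected on none, against 175, 104, 75.6 and 127 in wildtype cells, detected on all but replicate 3. The groups did not overlap, the bound was at least 1.18-fold lower, and the adjusted p over all genes without a filter was 0.082 (limma). Gp1bb, the beta chain of the same complex, read 51.1 to 56.0 in Bapx1 null cells and 119, 59.4, 61.2 and 105 in wildtype cells, where only replicates 1 and 4 detected it, and its adjusted p was 0.324 (limma, no filter).

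Itga2b, the alphaIIb chain of the fibrinogen receptor and an early marker of the lineage, read 62.9, 55.4, 75.1 and 69.9 in Bapx1 null cells, none detected, against 142, 93.3, 75.4 and 181 in wildtype cells, detected on all but replicate 3. Its normalized values overlapped, its bound was at least 1.18-fold lower, and its adjusted p was 0.226 (limma, no filter). A second Itga2b probe was not detected on any array. Itgb3, the beta3 chain, read 64.3, 56.5, 67.2 and 75.8 in Bapx1 null cells and 80.9, 67.8, 63.2 and 65.2 in wildtype cells, all below detection, so no fold is given. Of 6 related integrin chains, 5 were tested and 1 passed, Itga5, the alpha chain of the fibronectin receptor, which was higher by 1.03 ± 0.17 (SE) in Bapx1 null cells (adjusted p = 0.0312, limma).

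**Figure D2:**
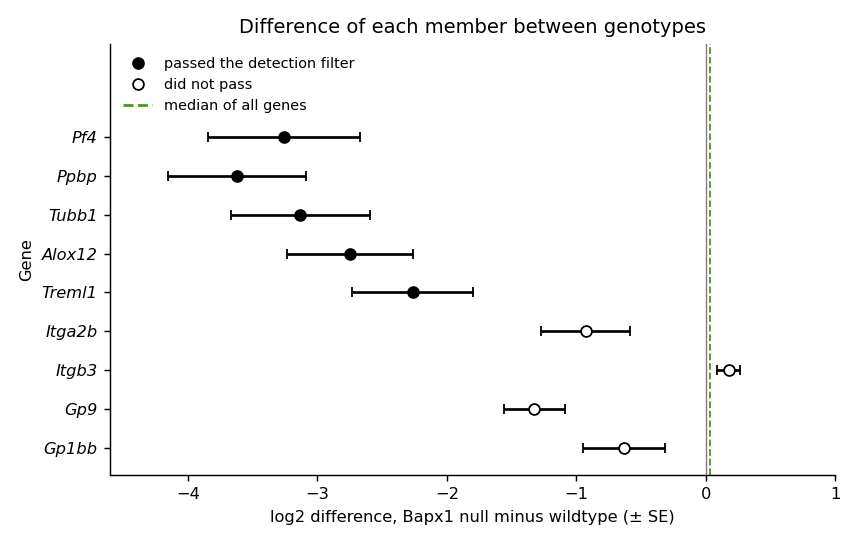
Difference of each member on the log2 scale, Bapx1 null minus wildtype, with its SE from the fit without a filter (n = 4 arrays each); filled points passed the detection filter. Of 9 points, 8 lie below 0, Itgb3 lies at 0.18, and the dashed line marks the median of all 19057 genes at 0.04.

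Over all 9 members the median difference was -2.26, against 0.04 for the 19057 genes without a filter, and over the 5 tested members it was -3.13, against 0.07 for the 9784 tested genes. With the members below background on every Bapx1 null array set to their bounds, these medians were -2.26 and -2.75. The Bapx1 null arrays lay below all wildtype arrays for 6 of the 9 members and for 4.26% of all genes. Because the members were chosen with earlier results known, this contrast carries no support by itself. Per array, 1, 1, 2 and 4 members were detected in Bapx1 null replicates 1 to 4, against 8, 7, 5 and 8 in wildtype replicates 1 to 4. The 9 summed normalized intensities ran from 358 to 618 on the Bapx1 null arrays and from 1303 to 6468 on the wildtype arrays.

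The spread within wildtype was wide and had a common pattern. Wildtype replicates 1 and 4 were the highest and replicate 3 the lowest for all 5 tested members, with a ratio of highest to lowest intensity between 4.22 for Treml1 and 6.97 for Pf4. Within Bapx1 null the same ratio lay between 1.49 for Ppbp and 2.0 for Pf4, close to background for all but Pf4. Without wildtype replicate 3, 4 members were tested and all 4 passed, among 22 genes that passed. The adjusted p of Pf4 was then 0.0106 (limma). Without Bapx1 null replicate 4, 5 members passed among 1214 genes. Leaving out Bapx1 null replicate 1 left 2 members past the threshold (91 genes in all) and leaving out replicate 2 left 3 (71 genes). Leaving out Bapx1 null replicate 3 left 0 members (5 genes), as did leaving out Bapx1 null replicates 2 and 3 together (63 genes). Leaving out wildtype replicate 1, 2 or 4 also left 0 members (4, 5 and 4 genes). The adjusted p of Pf4 was 0.109 without Bapx1 null replicate 3, and 0.112, 0.125 and 0.0968 without wildtype replicates 1, 2 and 4 (limma).

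**Figure D3:**
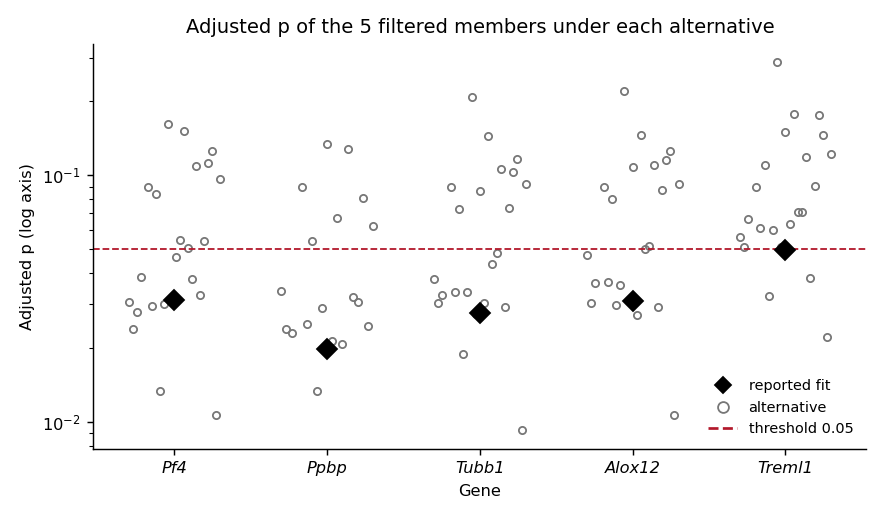
Adjusted p (log axis, limma except where the alternative is the methods' test) of the 5 tested members under the reported fit, drawn as diamonds, and under each alternative in which the gene was tested, drawn as circles. The dashed line is the threshold of 0.05; Treml1 sits at 0.0496 and most of its alternatives lie above the line.

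Wider lists of the lineage held few genes past the threshold. As a scale for every list below, 2628 of the 9784 tested genes had an unadjusted p under 0.05 in either direction (limma). Of 20 further platelet surface receptors with a probe, 11 were tested and 1 fell, Cd9, a tetraspanin that many other cells also carry, which averaged 5.97 ± 0.30 in Bapx1 null cells and 7.18 ± 0.32 in wildtype cells (SD, n = 4 each; adjusted p = 0.0344, limma). The Bapx1 null arrays lay below all wildtype arrays for 4 of the 20 and for 4.26% of all genes without a filter. That share belongs beside the same counts for the lists below. The other 3 of the 4, named here after their values were seen, were Gp5, Mpig6b and F2rl2. For 1 of the 20, Tbxa2r, the thromboxane receptor, also named after its values were seen, the Bapx1 null arrays lay above all wildtype arrays (difference 1.29; adjusted p = 0.0717, limma). The share of all genes separated upward was not counted. Gp5 is another subunit of the Gp1b-IX-V complex, Mpig6b the inhibitory receptor G6b-B, and F2rl2 the thrombin receptor PAR3. Gp1ba, also of that complex, had no named probe. Of 18 granule genes, 10 were tested and none passed, with 1 lower, Vwf, and 1 higher, Hps1, at an unadjusted p under 0.05 (limma). Hps1, needed to form dense granules, differed by 0.86. The brightest were Sparc at -0.12 and Timp1 at 0.44, both widely expressed outside this lineage. Vwf, the ligand of the Gp1b-IX-V complex, and Mmrn1, the granule protein multimerin, were the 2 granule genes whose groups did not overlap. Both were again named after their values were seen, with bounds of at least 1.65-fold and at least 1.22-fold lower.

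Of 16 activation enzymes and adaptors, 5 were tested and none passed (2 at an unadjusted p under 0.05, limma). Rap1b, a small GTPase found in most cells, differed by -0.34, and Plek, the protein kinase C substrate pleckstrin, by -2.08 (adjusted p = 0.062, limma). Plek, Tbxas1, the thromboxane synthase, and Lcp2, the adaptor SLP-76, were the 3 of the 16 whose Bapx1 null arrays lay below all wildtype arrays, the last 2 named after their values were seen. Of 11 cytoskeletal genes, 8 were tested and none passed (1 at an unadjusted p under 0.05, limma), with Tpm4 at -0.21 and Mylk at 0.51 the brightest. That 1 was Diaph1, an actin-nucleating formin, whose Bapx1 null arrays all lay above all wildtype arrays (difference 0.41; adjusted p = 0.12, limma). Was, the Wiskott-Aldrich protein of blood cells, had all Bapx1 null arrays below all wildtype arrays, and both genes were named after their values were seen.

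Among transcription factors of the lineage, 14 had a probe, 7 were tested and none passed, also at an unadjusted p under 0.05 (0 of 7, limma), and the median difference over all 14 was -0.09. The brightest, Meis1 and Ldb1, are active in many other cells and differed by 0.07 and 0.24. Of the other tested factors, Fli1, Lmo2, Gata2, Cbfb and Mafg differed by 0.46, -0.69, -0.30, -0.34 and -0.02, all with overlapping values. Gata1, Tal1, Gfi1b, Lyl1 and Runx1, the first 3 shared with red cells, were not detected on any array, and Nfe2, a subunit of NF-E2, was detected on 0 Bapx1 null arrays and on 3 wildtype arrays with overlapping values. Of the thrombopoietin pathway, 5 genes had a probe and only Jak2 was tested, at -0.62 (adjusted p = 0.224, limma). Stat5a, the next brightest, was detected on 1 Bapx1 null array.

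Markers of other cells were read on the same arrays, and their part in the result was not tested. Of 10 fetal hepatocyte markers, 5 were tested and none passed (5 at an unadjusted p under 0.05, limma), and 0 to 4 were detected per Bapx1 null array against 5 to 8 per wildtype array, with Alb and Fgb below detection on all. Their summed normalized intensity was 295, 443, 554 and 308 on Bapx1 null arrays 1 to 4, against 13710, 4061, 539 and 11050 on the wildtype arrays. Afp differed by -4.85 and Ttr by -4.02 (adjusted p = 0.0791 and 0.0755, limma). As with the members, wildtype replicates 1 and 4 were highest and replicate 3 lowest among the wildtype arrays. On wildtype replicate 3 it stood within the Bapx1 null range, whereas the member sum of 1303 there exceeded every Bapx1 null array.

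The 15 macrophage and leukocyte markers summed to 624 to 1726 on Bapx1 null arrays and 1387 to 2288 on wildtype arrays, with 2 to 4 and 8 to 12 of them detected per array. Of 8 tested, the protease gene Ctss fell at least 1.46-fold and Mpeg1, the pore protein perforin-2, fell by 1.83 on the log2 scale (adjusted p = 0.0306 and 0.0435, limma). Both passed the filter through the wildtype arrays, and without it their adjusted p was 0.0677 and 0.101 (limma). At an unadjusted p under 0.05, 6 of the 8 were lower and 0 higher (limma). The Bapx1 null arrays lay below all wildtype arrays for 4 of the 15. Ptprc, Spi1 and Itgam were below detection throughout. Of 9 erythroid markers, 6 were tested and Sptb, the erythroid beta-spectrin, fell by 1.55 (adjusted p = 0.0161, limma). All 6 were lower at an unadjusted p under 0.05 (limma), and the Bapx1 null arrays lay below all wildtype arrays for 4 of the 9. The erythroid sum was 370 to 1459 on Bapx1 null arrays and 1755 to 4388 on wildtype arrays, with Epor and Alas2 below detection. Of 10 mast cell, basophil and neutrophil markers, 3 were tested and S100a8 and S100a9, the calprotectin subunits, fell at least 1.03-fold and 1.12-fold (adjusted p = 0.0198 each, limma). Both passed the filter through the wildtype arrays alone, and without it their adjusted p was 0.0376 and 0.0438 (limma). Of the 10, 1 was detected per Bapx1 null array against 3 to 4 per wildtype array, and the summed ranges overlapped, at 281 to 439 and 345 to 416.

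Endothelial markers, some of which megakaryocytes share, overlapped, at 858 to 1715 in Bapx1 null cells and 894 to 1499 in wildtype cells, with 0 of 7 tested past the threshold. At an unadjusted p under 0.05 (limma) 1 was higher, Eng, and 1 lower, Cdh5, with differences of 1.11 and -0.94, and the brightest, Egfl7, differed by 0.24. The 13 gut mesenchyme and smooth muscle markers summed to 49820 to 56130 on Bapx1 null arrays and 24930 to 38200 on wildtype arrays. Of 11 tested, 1 passed, Tagln, the smooth muscle protein transgelin, higher by 1.01 (adjusted p = 0.0308, limma). Tagln was detected on 3 Bapx1 null arrays and 1 wildtype array, and without the filter its adjusted p was 0.0505 (limma). The bright smooth muscle actins Acta2 and Actg2 differed by 1.10 and 1.11, and Des and Myh11 by 1.08 and 1.72, all without passing. The mesenchyme genes Barx1, Pdgfra, Nkx2-3, Foxf1, Foxf2 and Hand1 differed by 0.83, 0.08, 0.22, -0.47, -0.45 and -0.17. At an unadjusted p under 0.05, 6 of the 11 were higher and 0 lower (limma). The Bapx1 null arrays lay above all wildtype arrays for 5 of the 13, and the share of all genes separated upward was not counted.

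**Figure D4:**
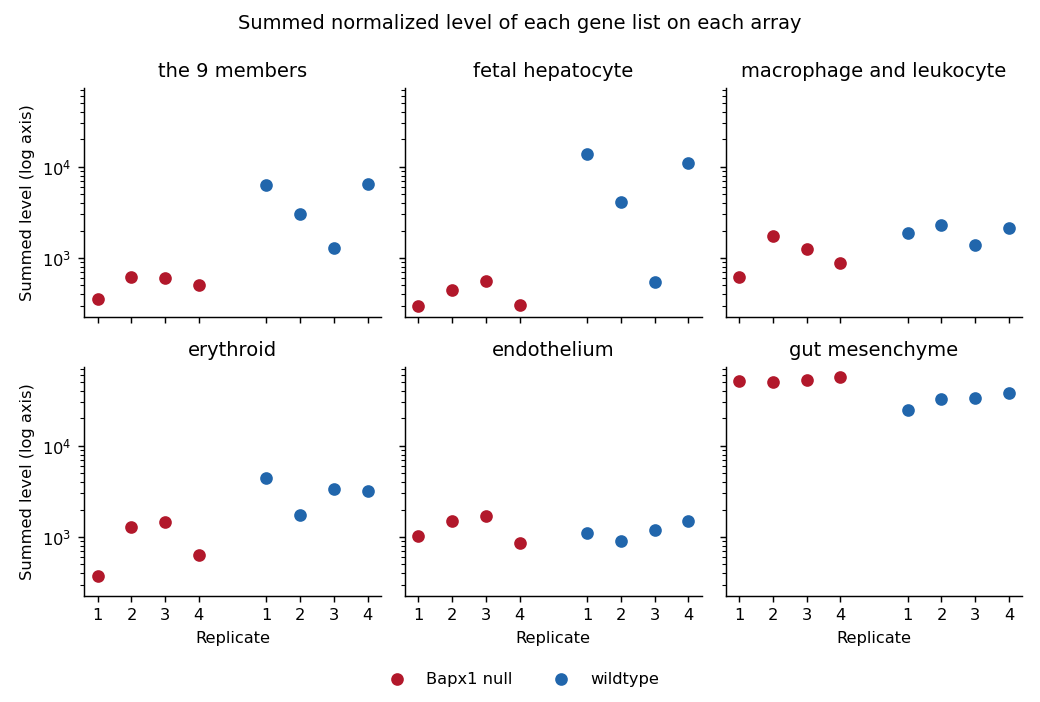
Summed normalized intensity (log axis) of the 9 members and of 5 marker lists on each array, Bapx1 null replicates on the left and wildtype replicates on the right. The members and the hepatocyte markers share wildtype replicates 1 and 4 as the highest and replicate 3 as the lowest wildtype arrays, while the sum of the mesenchyme and smooth muscle markers is higher on all Bapx1 null arrays.

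Likeness to the members was measured as the root mean square difference, over the 8 arrays, between a gene's log2 profile centred on its own mean and the mean centred profile of the 5 tested members. The nearest of the 9784 tested genes outside the members was Gp5, at 0.42 log2 units, with intensities of 61.3, 62.5, 70.3 and 70.5 in Bapx1 null cells, all below detection, against 482, 212, 105 and 505 in wildtype cells. Gp5 was at least 3.46-fold lower with an adjusted p of 0.062 (limma). Plek and Trf followed, both at 0.49, and then Rbp4 at 0.61 and Lgals3 at 0.63. Trf and Rbp4, the carriers of iron and retinol made by hepatocytes, are on the hepatocyte list above, and Lgals3 encodes galectin-3, abundant in macrophages. Of the 5 genes only Lgals3 passed the threshold, at least 1.94-fold lower (adjusted p = 0.0351, limma). It passed the filter through the wildtype arrays alone. The order of likeness is a description of 8 arrays that share their genotype contrast.

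**Figure D5:**
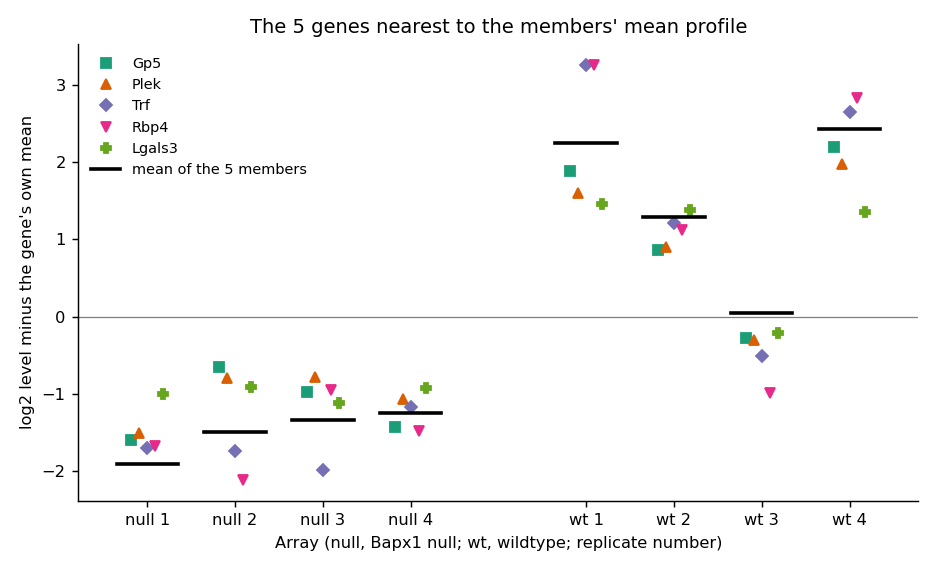
Log2 level minus the gene's own mean for the 5 nearest genes (symbols) and for the mean of the 5 tested members (bars) on each array, Bapx1 null on the left and wildtype on the right. The member mean lies between -1.92 and -1.25 on the Bapx1 null arrays and reaches 0.05 on wildtype replicate 3, where all 5 genes lie below it.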

How the data were processed

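Total RNA of EGFP-sorted E12.5 gut cells was profiled on Illumina MouseWG-6 v2 beadchips, 4 Bapx1 null and 4 wildtype samples grouped by their labels. The deposited intensity values, named with GenomeStudio in the submitters' processing notes, carry no background subtraction and no scaling between arrays, although the methods describe both. The deposited detection score per probe is a fraction that rises with signal to 1. The deposited log2 table of the authors is centred per array and per probe, and was used for an alternative and, by matching its differences between arrays, to name the probes. Of 45281 probes, 34885 had 1 symbol, 18 had several and 10378 were unnamed here. Background was removed with a normal-exponential fit in limma 3.58.1 (R 4.3.3; offset 16, control parameters inferred from detection), and signals were quantile normalized and put on the log2 scale. Probes with a score above 0.99 on at least 4 of 8 arrays were kept, the brightest per gene was used, and genotypes were compared with lmFit and eBayes, with Benjamini-Hochberg adjustment over all genes and a threshold of 0.05. The fit was first tested on simulated data. The number of arrays limits the precision.

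All 9 members were named with all probes. From each wider list up to 4 genes past the threshold with the largest difference were named, or the 2 brightest where none passed. The 5 genes nearest in profile and Bapx1 were also named. Further genes were named outside this rule, among them all tested transcription factors and mesenchyme markers. Members and lists were chosen with earlier results of these data known. Promoter sequences are RefSeq's (GRCm38.p6). Alternatives covered normalization, background, filter, test, probes, detected share as covariate, array weights, a replicate block and omitted arrays. Chip and scan batches are not given in the sources used here, so none could be tested. A planned comparison of member proteins was not made.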

Additional observations from a re-analysis of the deposited data

Results flagged for a closer look

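On the normalized log2 scale, Bapx1 null replicate 3 stood apart from the other Bapx1 null arrays for the Itga2b probe used above, at 5.63, the highest of its group, with the next at 4.96. Its raw intensity of 75.1 was below detection there. It was the only such value among the 30 groups of 4 arrays examined over the 15 member probes.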

How the results depend on the processing

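The differences of the 5 tested members stayed below 0 under every alternative run in which they were tested, and their median, -3.13, lay between -3.42 and -2.62 with single arrays left out. It was -2.32 with median and MAD scaling, where Pf4 stood at -1.96 against -3.26 as reported. It was -2.36 without background correction and also with offset 50, and -3.53 with no normalization. The median of all tested genes was 1.02 with median and MAD scaling and -0.45 with no normalization, against 0.07 as reported. The member median was -2.26 with no filter and also with probes above the median by mean signal, because both add dimmer members. The latter filter was chosen after seeing the data. The number of members past the threshold depended on the setting. It was 1 with detection required on all 8 arrays, which keeps only Pf4, 1 in the authors' processed table, and 0 with median and MAD scaling, with the percentage detected as covariate, with the methods' test without moderation, with no filter, and without Bapx1 null replicates 2 and 3 together. With single arrays left out it ran from 0 to 5. With any wildtype array left out Ppbp was not tested, because fewer than 4 arrays then detect it. With no filter the count of 0 became 2 without background correction and ran from 0 to 5 with single arrays left out, the 5 being without wildtype replicate 3. All genes past the threshold, 78, became 202 with array weights, 49 with no filter, 45 with no normalization, 47 with offset 50, 8 in the processed table, 4 with the methods' test (2094 at an unadjusted p under 0.05), 2 with the covariate and 0 with MAD scaling, and ran from 4 to 1214 with single arrays left out, the 1214 without Bapx1 null replicate 4, 5 without Bapx1 null replicate 3, 22 without wildtype replicate 3, 5 without wildtype replicate 2 and 4 without wildtype replicate 1 or 4. Itgb3 changed sign, to -0.10, with no normalization between arrays. Apart from these, the cause was not tested.

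The deviations of samples with the same replicate number correlated at -0.17 to 0.15 over genes, so the numbers were not taken as pairs. With the replicate block, 3 members and 50 genes passed. Treml1 kept its call in 3 of 22 alternatives, Pf4 in 12 of 23, Ppbp in 11 of 18, Tubb1 in 12 of 22 and Alox12 in 10 of 22. Signals near background limit Itga2b, Itgb3, Gp9 and Gp1bb.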
